A study of Rattus norvegicus with 35 samples.

Results

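Complement and coagulation factors are the plasma proteins that the liver secretes for defence against microbes and for clotting, and their transcripts were followed here in cultured rat hepatocytes exposed to triazole fungicides. The genes came from a list of 36, of which 15 belong to complement and 21 to coagulation, and every probe set annotated to a listed gene was collected. Of the 36, 31 had at least 1 probe set naming that gene alone, 14 of complement and 17 of coagulation, and all 31 passed the filter on low values that left 10490 of 14217 genes for testing. Complement factor B (Cfb) was represented by 4 probe sets that it shares with C2, and kininogen (Kng1) by 1 probe set shared with its paralogs Kng2 and Kng2l1. F7, F11 and F13b were not analysed here.

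Primary hepatocytes, cells taken from rat liver and kept in culture, were exposed through the medium for 72 h, and total RNA was hybridised to Affymetrix whole-genome rat arrays, 1 sample an array. All 35 arrays were used, in 12 groups: vehicle (DMSO at 0.1%), myclobutanil, propiconazole and triadimefon at 10, 30 and 100 µM each, and the reference inducers phenobarbital at 200 µM and pregnenolone-16α-carbonitrile (PCN) at 30 µM. Each group held 3 arrays except PCN, with 2. The titles carry the codes Rs256, Rs293 and Rs304, 1 array of each code a group and no Rs256 array for PCN. The design text calls the samples biological replicates, but nothing says that the codes are separate animals, so the p-values measure the spread between these samples alone, and strain, sex and age were not given in the sources used here.

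Complement is a cascade of plasma proteases that is started by antibody (the classical pathway, with C1s), by sugars on microbes (the lectin pathway, with the mannose-binding lectins Mbl1 and Mbl2 and their proteases Masp1 and Masp2) or by direct deposition of C3 with factor B. All routes meet at C3 and go on to the terminal proteins C5 to C9, which build a pore in the target membrane, while C4b-binding protein (C4bpa, C4bpb) and factor I (Cfi) hold the cascade back. Coagulation is a chain of proteases, several of which need vitamin K for their maturation, that ends with thrombin (F2) turning fibrinogen (Fga, Fgb, Fgg) into fibrin. Hepatocytes make most of these proteins, and many of their genes are read under hepatocyte nuclear factors and C/EBP factors, with STAT3 raising some during the acute phase response.

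The promoters of 5 members that fell with propiconazole at 100 µM, and of Fgb, which did not pass the test, are shown as examples. Those of C6 and F12, which also fell, are not shown. C6 held 1 match, to the C/EBP letters, and F12 held 0. They are the 250 bases before the annotated start, taken from RefSeq on build GRCr8 and written 5′ to 3′ on the gene's strand. Capitals mark matches to the letters searched: GTTAAT for HNF1, CAAAGTC for HNF4, TTGCNNAA for C/EBP and TTCNNNGAA for STAT3, on both strands. The C4bpa and C4bpb windows lie at chr13:44663472-44663721 and chr13:44683782-44684031, minus strand, with 1 other protein-coding gene between the genes. The C8b window is chr5:124763864-124764113, plus strand, and C8a is its direct neighbour. The F9 window is chrX:143388392-143388641 and the Vtn window chr10:63892532-63892781, both plus strand. The Fgb window is chr2:170700876-170701125, minus strand, and Fgg, Fga and Fgb stand in a row with no protein-coding gene between them.
C4bpa: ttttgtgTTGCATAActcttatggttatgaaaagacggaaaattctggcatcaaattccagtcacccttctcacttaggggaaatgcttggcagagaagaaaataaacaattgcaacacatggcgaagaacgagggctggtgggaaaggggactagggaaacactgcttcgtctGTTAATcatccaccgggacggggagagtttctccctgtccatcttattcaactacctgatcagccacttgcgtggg
C4bpb: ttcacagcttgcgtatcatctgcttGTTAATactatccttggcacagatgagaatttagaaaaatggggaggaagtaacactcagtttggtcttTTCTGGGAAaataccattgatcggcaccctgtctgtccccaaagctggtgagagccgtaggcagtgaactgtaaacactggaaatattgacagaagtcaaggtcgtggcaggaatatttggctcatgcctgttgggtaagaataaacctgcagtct
C8b: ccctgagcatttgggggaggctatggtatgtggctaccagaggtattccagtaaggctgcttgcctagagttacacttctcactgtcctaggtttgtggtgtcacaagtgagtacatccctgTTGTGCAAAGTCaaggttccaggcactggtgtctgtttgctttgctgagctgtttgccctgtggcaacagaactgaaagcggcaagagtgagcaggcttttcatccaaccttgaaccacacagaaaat
F9: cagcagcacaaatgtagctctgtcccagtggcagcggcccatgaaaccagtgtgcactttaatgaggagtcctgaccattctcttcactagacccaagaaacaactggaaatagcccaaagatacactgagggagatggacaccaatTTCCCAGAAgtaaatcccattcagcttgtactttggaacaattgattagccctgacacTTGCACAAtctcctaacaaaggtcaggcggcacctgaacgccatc
Vtn: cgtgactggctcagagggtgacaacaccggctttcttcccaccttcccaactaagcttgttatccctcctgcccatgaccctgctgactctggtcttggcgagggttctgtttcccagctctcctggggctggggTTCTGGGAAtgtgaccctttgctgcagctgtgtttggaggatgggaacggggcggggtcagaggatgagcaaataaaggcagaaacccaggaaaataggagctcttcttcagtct
Fgb: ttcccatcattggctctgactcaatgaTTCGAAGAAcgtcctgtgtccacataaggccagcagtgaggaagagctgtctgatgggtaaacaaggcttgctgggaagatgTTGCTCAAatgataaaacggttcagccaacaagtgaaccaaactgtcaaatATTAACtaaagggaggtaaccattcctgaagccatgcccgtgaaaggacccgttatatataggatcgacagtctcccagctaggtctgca

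In C4bpa the HNF1 match began 76 bases and the C/EBP match 243 bases before the start, and in C4bpb the HNF1 match began at 225 and the STAT3 match at 156 bases. The C8b run joins a C/EBP and an HNF4 match that overlap, beginning 128 and 123 bases before the start. In F9 the C/EBP match lay at 45 and the STAT3 match at 103 bases, and in Vtn the STAT3 match lay at 115. The uncalled Fgb held matches to 3 of the 4 motifs, at 90 bases for HNF1, 141 for C/EBP and 223 for STAT3. Promoters were matched by symbol for 26 of the 31 members, and the shares were counted over 250 bases before to 50 after the start, 1 promoter a gene. The HNF1 letters were in 9 of 26 members (34.6%) and in 7.37% of all 27457 promoters. The C/EBP letters were in 10 of 26 (38.5%) against 10.5%, the STAT3 letters in 7 of 26 (26.9%) against 8.68%, and the HNF4 letters in 1 of 26 (3.85%) against 4.54%. Among the 7 matched members that fell with propiconazole, 2 held the HNF1, 1 the HNF4, 4 the C/EBP and 3 the STAT3 letters, and among the other 19 the counts were 7, 0, 6 and 4. A match describes the letters and is not a binding site.

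The deposited values lie on a log-like scale whose base is not stated, so changes are given in units of that scale after quantile normalization, written as treated minus DMSO, and not as folds. As deposited, the arrays had medians from -0.034 to 0.022 and SDs from 0.646 to 0.941, the widest being the propiconazole 30 µM array of code Rs293. Of 8 hepatocyte markers, 7 were on the array, and all 7 were at or above the 99.2nd percentile of the array. Their summed level was 25.98 to 26.53 over the DMSO arrays and 25.02 to 25.85 over the propiconazole 100 µM arrays, and 2 of the 7, Ambp and Rbp4, fell there by 0.34 and 0.39 (limma, adjusted p = 2.83e-05 and 0.00247). Apoa1 differed by 0.22 (adjusted p = 0.0872, 3.46e-05 in a fit with the replicate code as a block), Ttr and Cps1 by -0.12 and -0.17 and called in neither fit, and Alb and Serpina1 by 0. Alb read 4.33 in both groups, at the top of the array, where quantile normalization sets the same value on every array. Its difference of 0 and its part of the summed level therefore cannot show a steady hepatocyte content. Of 12 macrophage markers, 11 were on the array, 9 of them under the 75th percentile, with a summed level of 0.83 to 3.09 in DMSO and 1.73 to 3.36 with propiconazole at 100 µM. Cd68, the lysosomal one of these, rose there by 0.80 (adjusted p = 0.00727). Of the other 5 tested, Cd14 differed by 0.39 (adjusted p = 0.615, 0.0017 with the block) and 4 were called in neither fit. The 6 endothelial markers on the array were all at or below the 39.6th percentile. The 3′ minus 5′ difference of the Actb control probe sets, a sign of RNA quality, averaged 0.77 in DMSO, 0.65 with propiconazole, 0.72 with myclobutanil and 0.85 with triadimefon at 100 µM. The part of these differences in the results that follow was not tested, and in bulk RNA fewer cells of a type and less RNA per cell cannot be told apart.

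With propiconazole at 100 µM, 5 of the 14 complement members fell against DMSO and none rose: C4bpa and C4bpb, the chains of the C4b-binding protein, C6 and C8b of the terminal pathway, and the classical pathway protease C1s. All 14 differences lay below 0, from -1.12 for C4bpa to -0.01 for Cfi, with a median of -0.37, where the median over all genes tested was 0.01 and 47% of them lay below 0. Over all genes 5.6% fell and 6.37% rose in this comparison (limma, adjusted p under 0.05), so the complement count stood above that background. The list was chosen with earlier results of these data known, so this excess is a description and was not tested. Because arrays of the same code deviated together, a fit with the code as a block was run beside the first, and there 12 complement members fell against 13.6% of all genes. The 2 members not called in either fit were Mbl1 and Cfi. Within the codes, 13 of the 14 were lower than DMSO in all 3, but the share of all genes was not counted, so this count has no background. Where no member was called, 8 of the 14 were lower in every code with propiconazole at 10 µM. With PCN 9 of the 14 were, but it has only 2 codes, in which agreement comes more easily than in 3.

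**Figure D1:**
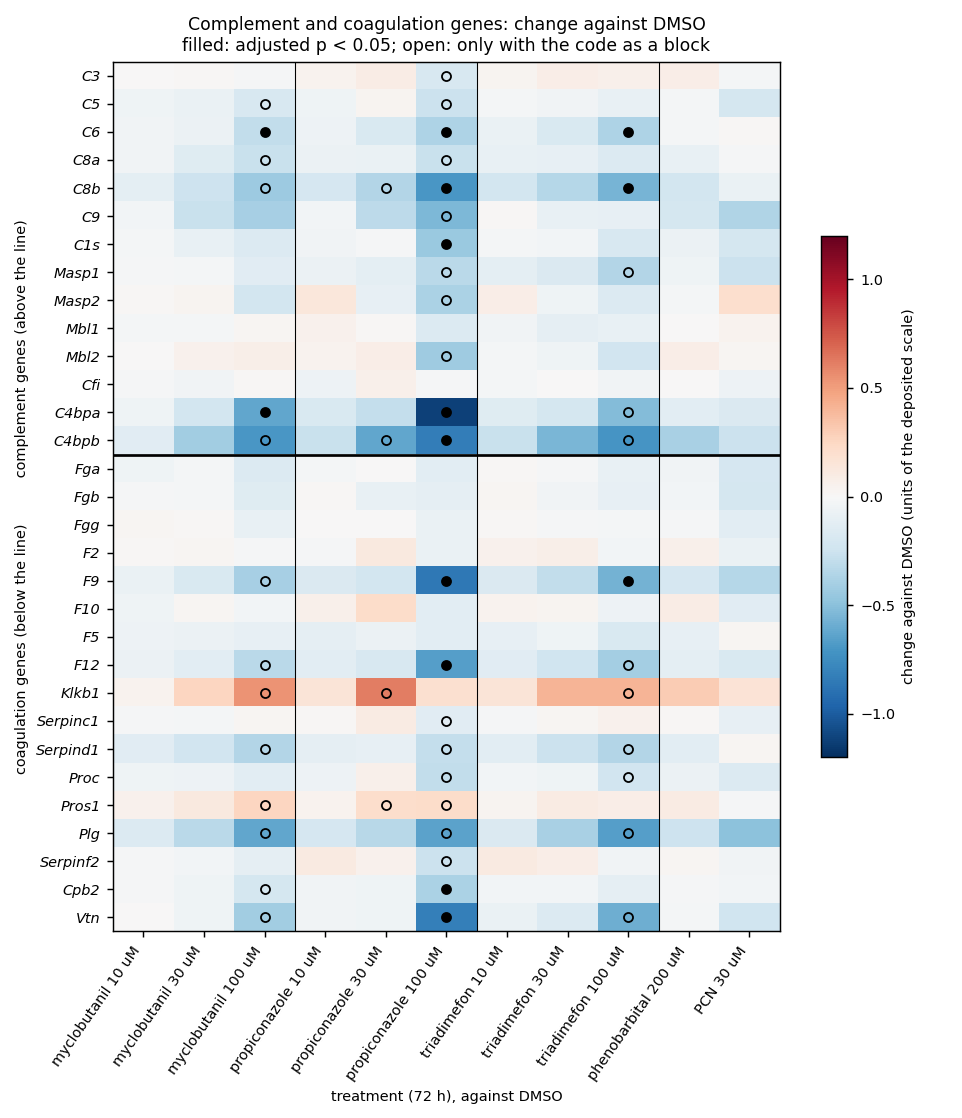
Change against DMSO, in units of the normalized log-like scale, for the 31 members (rows, complement above coagulation) in the 11 treated groups (columns), with filled dots for members called without the code block and open dots for those called with the block alone. Filled dots are confined to the 3 triazoles at 100 µM, where C4bpa with propiconazole has the darkest cell at -1.12.

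C4bpa, the alpha chain of the inhibitor that binds C4b and helps factor I to cleave it, had the largest change of all members. Its values in DMSO were 2.63, 2.97 and 2.67 for codes Rs256, Rs293 and Rs304, and 1.92, 1.48 and 1.51 with propiconazole at 100 µM. Each treated array lay below each DMSO array, with code Rs256 showing the smallest gap. C4bpa fell by 1.12 (SE 0.144, n = 3 and 3, limma adjusted p = 9.98e-06). Its group held 80.2% and its code 7.65% of the spread over all arrays. C4bpb, the beta chain, read 0.73, 1.43 and 0.53 in DMSO and 0.16, 0 and 0.05 with propiconazole. The groups did not overlap, and the DMSO array of code Rs293 stood far above the other DMSO arrays. The treated values lay near the array median, the limit of the filter on low values. C4bpb fell by 0.83 (SE 0.217, adjusted p = 0.0114), but without that array the difference was -0.56 with an adjusted p of 0.125, and without code Rs256 it was -0.95 with an adjusted p of 0.0653. With only the groups compared the adjusted p was 0.0766. Cfi, the protease of the same inhibitory step, differed by -0.01 (adjusted p = 0.961). Its median percentile was 99.3, near the top of the array, where quantile normalization can narrow differences. As deposited Cfi differed by -0.02.

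Among the terminal proteins, C8b, the beta subunit of C8, read 1.36, 1.82 and 1.67 in DMSO and 0.72, 1.0 and 1.02 with propiconazole. All treated arrays lay below all DMSO arrays, and the gap within a code was 0.64 to 0.83. C8b fell by 0.70 (SE 0.147, adjusted p = 0.00186), though leaving out code Rs304 gave an adjusted p of 0.0756. C6, which joins the complex of C5b before C8, read 0.70, 0.71 and 0.56 in DMSO and 0.16, 0.30 and 0.40 with propiconazole. The groups did not overlap, and the gap narrowed to 0.15 in code Rs304. C6 fell by 0.37 (SE 0.0687, adjusted p = 0.000585), a call kept under every alternative run for it.

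C8a, the alpha subunit, read 1.36, 1.72 and 1.59 in DMSO and 1.26, 1.41 and 1.17 with propiconazole, so that the ranges overlapped. The difference of -0.27 missed the threshold (adjusted p = 0.0543) and passed with the code block (adjusted p = 0.000551). The terminal members C5 and C9, described after their values were seen, differed by -0.26 and -0.54 and passed with the block alone (adjusted p = 0.00114 and 0.0286). The difference of C9, the pore-forming subunit, was -0.09 in code Rs256 and -1.05 in code Rs293.

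C1s, the protease that cleaves C4 and C2, read 2.26, 2.40 and 2.25 in DMSO and 1.75, 2.09 and 1.73 with propiconazole. The groups did not overlap, with code Rs293 the highest in both. C1s fell by 0.45 (SE 0.128, adjusted p = 0.0198). This call was lost under 5 leave-outs, without code Rs256 or Rs304, without the DMSO array of code Rs293, or without the propiconazole array of code Rs256 or Rs304, at differences of -0.39 to -0.42 and adjusted p of 0.086 to 0.214. It was also lost under each of the 3 other scalings of the arrays (adjusted p = 0.359 to 0.483) and with only the 2 groups in the fit (adjusted p = 0.0575).

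The lectin pathway members did not pass without the block. Masp2, the protease that starts this route, read 1.43, 1.70 and 1.61 in DMSO and 1.12, 1.09 and 1.40 with propiconazole, and the groups did not overlap. Its difference was -0.38 (adjusted p = 0.117, 0.00519 with the block). A second probe set of Masp2, 1371025_at, fell by 0.67 (adjusted p = 3.47e-05), so the probe sets of this gene disagreed on the call, though not on the direction. Mbl2, which recognises sugars, read 2.45, 2.09 and 2.30 in DMSO and 1.57, 2.04 and 1.95 with propiconazole. The groups did not overlap, but the nearest values, both of code Rs293, were close. The difference was -0.43 (adjusted p = 0.0777, 0.0273 with the block), and a second Mbl2 probe set differed by -0.13. Masp1, named after its values were seen, differed by -0.32 and was called with the block alone (adjusted p = 4.22e-05); its code held 76.6% of its spread.

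C3, where all routes meet, differed by -0.19 (adjusted p = 0.239, 0.00308 with the block). Its median percentile was 99.8, near the top of the array, where quantile normalization can narrow differences. As deposited C3 differed by -0.23. Of the 4 probe sets shared by Cfb and C2, 1389470_at read 2.25, 1.97 and 1.56 in DMSO and 1.62, 0.90 and 0.68 with propiconazole. Its ranges overlapped narrowly, at 1.56 and 1.62, while each code was lower than its own DMSO array. The difference was -0.86 (SE 0.325, adjusted p = 0.0882, 5.33e-08 with the block), whereas the other 3 sets differed by -0.05 to -0.02, and which of the genes each set reads was not tested.

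**Figure D2:**
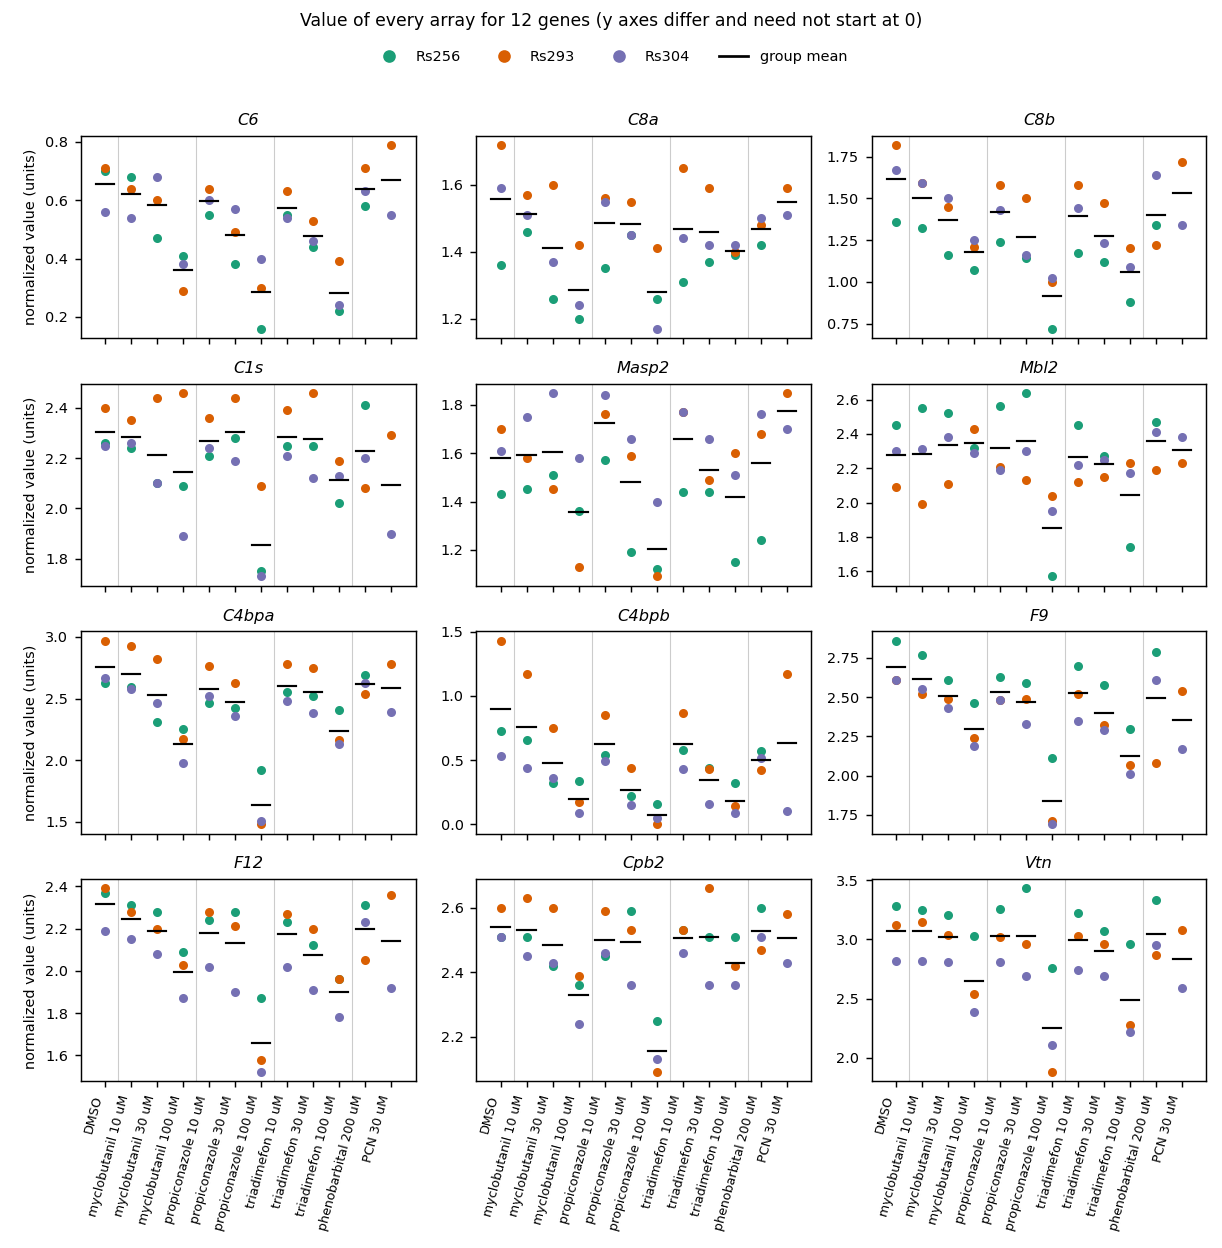
Normalized level of 12 members on every array, 1 panel a gene, by group along the horizontal axis, with points coloured by replicate code and a line at the group mean. The C4bpa points for propiconazole at 100 µM lie between 1.48 and 1.92, under all DMSO points, and those of the reference inducers lie between 2.39 and 2.78.

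Among the 17 coagulation members, 4 fell with propiconazole at 100 µM and none rose: the clotting proteases F9 and F12, the adhesion protein vitronectin (Vtn) and carboxypeptidase B2 (Cpb2). Of the 17 differences 15 lay below 0, from -0.86 for F9 to 0.22 for Pros1, with a median of -0.14. Read against the 5.6% of all genes that fell, 4 of 17 was above the background, with the same limit from the choice of the list. With the code block 9 fell, where 13.6% of all genes fell, and 1 rose, Pros1, where 15.7% of all genes rose, a larger share than 1 of 17. The 3 fibrinogen chains, the proteases F2 and F10 and the cofactor F5 were not called in either fit.

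F9, the vitamin K-dependent factor IX, read 2.86, 2.61 and 2.61 in DMSO and 2.11, 1.71 and 1.69 with propiconazole. The groups were well apart, and the gap within a code was 0.76 to 0.92. F9 fell by 0.86 (SE 0.146, adjusted p = 0.000237). F12, the contact factor that starts clotting on negatively charged surfaces, read 2.37, 2.39 and 2.19 in DMSO and 1.87, 1.58 and 1.52 with propiconazole. Again no arrays overlapped, and all codes were lower. F12 fell by 0.66 (SE 0.117, adjusted p = 0.000373).

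Vtn, which binds cells, heparin and the terminal complement complex, read 3.28, 3.12 and 2.82 in DMSO and 2.76, 1.88 and 2.11 with propiconazole. The groups did not overlap but came close, since code Rs256 was the highest in both. Vtn fell by 0.82 (SE 0.233, adjusted p = 0.0199), a call lost in 6 leave-outs, without code Rs293 or Rs304, without the DMSO array of Rs256 or Rs293, or without the propiconazole array of Rs293 or Rs304, at -0.61 to -0.88 (adjusted p = 0.0677 to 0.38), and with only the groups compared (adjusted p = 0.0925). Cpb2, which trims fibrin and so slows its lysis, read 2.51, 2.60 and 2.51 in DMSO and 2.25, 2.09 and 2.13 with propiconazole. The groups did not overlap, and the DMSO arrays lay close together. Cpb2 fell by 0.38 (SE 0.0719, adjusted p = 0.000645).

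All 4 coagulation calls were lost under each of the 3 other scalings of the arrays, and some of the complement calls were kept. With the values as deposited, centred on their median, or centred and scaled to a common spread, the adjusted p ranged from 0.0997 to 0.174 for F9, 0.13 to 0.219 for F12, 0.335 to 0.445 for Vtn and 0.476 to 0.618 for Cpb2, while the differences stayed close to their size, at -0.80 to -0.82, -0.60 to -0.61, -0.77 to -0.79 and -0.34 to -0.36. Under the same 3 scalings C6 and C4bpb stayed called, and C4bpa and C8b missed the threshold only with the common spread (adjusted p = 0.0508 and 0.0569). The widest array, propiconazole 30 µM of code Rs293, enters the spread of all fits. As deposited it read 3.6 for F9 and 4.38 for Vtn, where the other arrays of its group read 2 to 2.73 and 2.28 to 3.64. For C6 and C4bpb it read 0.59 and 0.53, against 0.39 to 0.55 and 0.14 to 0.23. Its part in the lost calls was not tested.

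The fibrinogen chains, named after their values were seen, showed no common direction. Fga read 3.33, 3.47 and 2.93 in DMSO and 3.59, 2.83 and 2.93 with propiconazole, Fgb 3.70, 3.74 and 3.25 against 3.81, 3.23 and 3.33, and Fgg 3.79, 3.87 and 3.59 against 3.85, 3.56 and 3.58. In code Rs293 all 3 chains were lower with propiconazole, and in code Rs256 all 3 were higher. Code held 71.5 to 75.7% of the spread of these transcripts and group 4.85 to 6.64%. Their differences were -0.13, -0.11 and -0.08 (adjusted p = 0.812, 0.841 and 0.775, and 0.429, 0.475 and 0.375 with the block). With median percentiles of 99.6 to 100, the chains lay near the top of the array, where quantile normalization can narrow differences between arrays. As deposited the differences were -0.16, -0.14 and -0.13, and these values do not show steady transcripts.

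**Figure D3:**
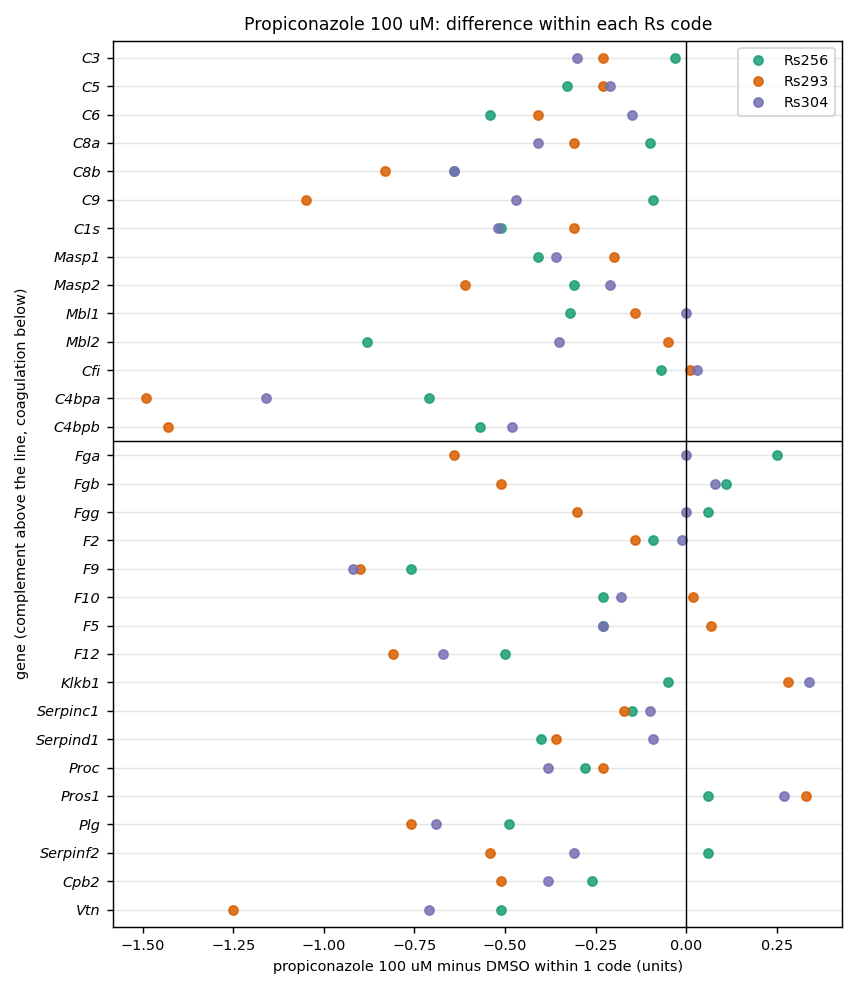
Propiconazole 100 µM minus DMSO within each replicate code, in units of the normalized scale, for the members along the vertical axis, with 1 point a code. The F9 points lie between -0.92 and -0.76, while those of Fga run from -0.64 to 0.25.

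For Proc, Pros1, Plg, Serpinc1, Serpind1 and Serpinf2, which restrain clotting or act on fibrin lysis, code held 39.6 to 75.1% of the spread and none was called without the block. Protein C (Proc), which inactivates factors V and VIII, read 2.70, 2.48 and 2.47 in DMSO and 2.42, 2.25 and 2.08 with propiconazole. No arrays overlapped, and the difference was -0.30 (adjusted p = 0.126, 2.81e-05 with the block). Its cofactor protein S (Pros1), which circulates partly bound to the C4bpb chain, read 1.79, 1.66 and 1.61 in DMSO and 1.85, 1.99 and 1.89 with propiconazole. Here every treated array lay above every DMSO array, at a difference of 0.22 (adjusted p = 0.146, 0.00474 with the block). Plasminogen (Plg), the precursor of the fibrin-cleaving plasmin, read 2.91, 2.43 and 2.00 in DMSO and 2.42, 1.67 and 1.31 with propiconazole. Its ranges overlapped, since Rs256 was the highest and Rs304 the lowest in both groups and code held 75.1% of the spread. The Plg difference was -0.64 (SE 0.444, adjusted p = 0.422, 0.0013 with the block). Antithrombin (Serpinc1), heparin cofactor II (Serpind1) and the plasmin inhibitor Serpinf2 differed by -0.14, -0.29 and -0.26 and passed with the block alone (adjusted p = 0.0395, 0.0496 and 0.0284). The shared kininogen probe set differed by -0.07.

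Counting members whose treated arrays lay wholly below DMSO gave 7 of 14 in complement and 5 of 17 in coagulation with propiconazole at 100 µM, where 12.3% of all genes did so. Pros1 was the only member wholly above, where 14.4% of all genes were.

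At 100 µM of myclobutanil, 2 complement members fell, C6 and C4bpa, and no coagulation member was called by limma (5 of 17 at an unadjusted p under 0.05). Over all genes 0.572% fell and 0.639% rose at the adjusted threshold. No share of all genes was counted at the unadjusted threshold, here or for the later counts at it. The complement median was -0.20, with 11 of 14 below 0, and the coagulation median was -0.13, with 14 of 17 below 0. These counts depended on the scaling. Under the other scalings 6 of the 31 members changed sign, with normalized differences of up to 0.16 in size. With the code block, 6 complement members (C5, C6, C8a, C8b, C4bpa and C4bpb) and 6 coagulation members (F9, F12, Serpind1, Plg, Cpb2 and Vtn) fell against 4.87% of all genes, and Klkb1 and Pros1 rose against 5.05%. The second Masp2 probe set, outside these counts, differed by -0.34 (limma, adjusted p = 0.101, 0.00254 with the block).

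C6 read 0.41, 0.29 and 0.38 with myclobutanil and C4bpa read 2.25, 2.17 and 1.98. All of these lay below the DMSO arrays of the same gene. C6 fell by 0.30 (SE 0.0687) and C4bpa by 0.62 (SE 0.144), both at an adjusted p of 0.0312. In the fit without the block, in which all leave-outs were run, each of these calls rests on nearly all the arrays. There the C4bpa call was lost under all 9 leave-outs (-0.51 to -0.74, adjusted p = 0.0517 to 0.516), and the C6 call under all but the one without the DMSO array of Rs304 (-0.24 to -0.36, adjusted p = 0.0701 to 0.326 where lost). Both were also lost under the 3 other scalings, C4bpa at -0.50 to -0.55 (adjusted p = 0.893 to 1) and C6 at -0.30 to -0.31 (adjusted p = 0.0945 to 0.102), and with only the groups compared in the fit (adjusted p = 0.18 and 0.231). Wholly below DMSO lay 4 complement members, C6, C8b, C4bpa and C4bpb, and 4 coagulation members, F9, F12, Serpind1 and Cpb2, where 6.08% of all genes did, and Pros1 lay above, where 6.97% did.

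At 100 µM of triadimefon, C6 and C8b of complement and F9 of coagulation fell, where 0.963% of all genes fell and 0.867% rose. The second Masp2 probe set, which does not represent the gene in these counts, also fell, by 0.43 (limma, adjusted p = 0.018). The set that represents Masp2 differed by -0.16 and was not called. C6 read 0.22, 0.39 and 0.24, C8b 0.88, 1.2 and 1.09, and F9 2.30, 2.07 and 2.01. None of these arrays reached the DMSO range of its gene. C6 fell by 0.37 (SE 0.0687, adjusted p = 0.00505), C8b by 0.56 (SE 0.147, adjusted p = 0.0472) and F9 by 0.57 (SE 0.146, adjusted p = 0.0424). The C6 call was lost when a whole code was left out (adjusted p = 0.0554 to 0.0845). The C8b call was lost in 8 of 9 leave-outs (-0.45 to -0.63, adjusted p = 0.0607 to 0.593), all but the one without the DMSO array of Rs256. The F9 call was likewise lost in 8 of 9 (-0.48 to -0.66, adjusted p = 0.0579 to 0.524), all but the one without code Rs256. Under the 3 other scalings C8b (-0.49 to -0.52, adjusted p = 0.358 to 0.449) and F9 (-0.39 to -0.46, adjusted p = 0.855 to 0.917) were lost and C6 was kept, and with only the groups compared C6, C8b and F9 were lost (adjusted p = 0.0961, 0.157 and 0.0961).

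C4bpa and C4bpb read 2.41, 2.16 and 2.13, and 0.32, 0.14 and 0.09, with triadimefon. Both genes lay wholly below DMSO, and their differences of -0.52 and -0.71 missed the threshold (adjusted p = 0.0623 and 0.0987) and passed with the block (adjusted p = 0.00347 and 0.00444). In all, the block gave 5 complement members that fell (C6, C8b, Masp1, C4bpa and C4bpb) and 6 coagulation members (F9, F12, Serpind1, Proc, Plg and Vtn), against 5.65% of all genes, and Klkb1 rose against 6.16%. Wholly below DMSO lay 5 complement and 2 coagulation members (8.4% of all genes) and wholly above none (11.8%). After quantile normalization the medians were -0.18 for complement and -0.10 for coagulation. With the values as deposited, most complement members stayed negative but most coagulation members were positive. The sign of the coagulation median thus depended on the scaling. Fga, Fgb, Fgg, F2, F10, Serpinf2 and Cpb2, negative after quantile normalization, were 0.01 to 0.16 as deposited. Under the other scalings 9 of the 31 members changed sign, with normalized differences of up to 0.11 in size.

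Klkb1, plasma prekallikrein of the contact system, had differences of the opposite sign to most of its list at these doses after quantile normalization. With the values as deposited, most other coagulation members shared its sign with triadimefon, so this contrast depends on the scaling. Klkb1 read 0.99, 0.26 and 0.13 in DMSO, 1.52, 0.94 and 0.54 with myclobutanil and 1.26, 0.67 and 0.68 with triadimefon at 100 µM. The ranges overlapped because code Rs256 was high throughout, while within each code both treated arrays were above DMSO. The differences were 0.54 and 0.41 (adjusted p = 0.678 and 0.756, and 0.00444 and 0.0234 with the block). With propiconazole at 100 µM the difference was 0.19 and was called in neither fit.

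The 3 triazoles share the triazole ring and differ elsewhere: a nitrile group marks myclobutanil, a ketone marks triadimefon, and propiconazole has a dioxolane ring. They were compared with each other at each dose, 9 pairs in all, with p-values adjusted over all genes within a pair. No member was called in any pair by limma without the block. There 10 member tests had an unadjusted p under 0.05, a count with no share of all genes beside it. Over all genes, 0.744% differed between propiconazole and myclobutanil at 100 µM, 0.505% between propiconazole and triadimefon and 0% between myclobutanil and triadimefon. Since these comparisons share arrays with each other, and those against DMSO share the 3 DMSO arrays, each is given by its own values.

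With the code block, 15 member tests passed, all at 100 µM, all with propiconazole the lower. Against myclobutanil there were 10, C3, C1s, Masp1, Mbl2 and C4bpa of complement and F9, F12, Proc, Cpb2 and Vtn of coagulation, where 3.22% of all genes were lower. Against triadimefon there were 5, C3 and C4bpa, and F12, Serpinc1 and Cpb2, where 2.06% of all genes were lower. Without the block, C4bpa was lower with propiconazole than with myclobutanil by -0.50 (95% interval -0.80 to -0.20, adjusted p = 0.126, 0.00914 with the block). The difference from triadimefon was -0.60 (-0.89 to -0.30, adjusted p = 0.0597, 0.00293 with the block). For F9 it was -0.46 against myclobutanil (-0.76 to -0.16, adjusted p = 0.179, 0.00252 with the block) and -0.29 against triadimefon (-0.59 to 0.01, 0.0645 with the block).

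Cpb2 was lower with propiconazole than with triadimefon by -0.27 (-0.42 to -0.13, adjusted p = 0.101, 0.0031 with the block) and Mbl2 lower than with myclobutanil by -0.49 (-0.82 to -0.17, adjusted p = 0.18, 0.0369 with the block). The treated arrays of Mbl2 read 2.32, 2.43 and 2.29 with myclobutanil, all above the 3 of propiconazole. By contrast, C6 differed between propiconazole and triadimefon by 0 (-0.14 to 0.14), C8b by -0.15 (-0.45 to 0.16) and C4bpb by -0.11 (-0.56 to 0.33). C4bpb read 0 to 0.34 over the 3 triazoles at 100 µM, near the array median. Little room was left there for a compound difference, so its small differences cannot show that the compounds act alike. Between myclobutanil and triadimefon the member differences ran from -0.30 to 0.30 and none was called in either fit, with C4bpa at -0.10 (-0.39 to 0.20), C6 at 0.07 (-0.07 to 0.21), C4bpb at 0.01 (-0.43 to 0.46) and F9 at 0.17 (-0.13 to 0.47). A p that misses the threshold does not show that the compounds act alike, and these intervals are the range of differences left by the data.

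**Figure D4:**
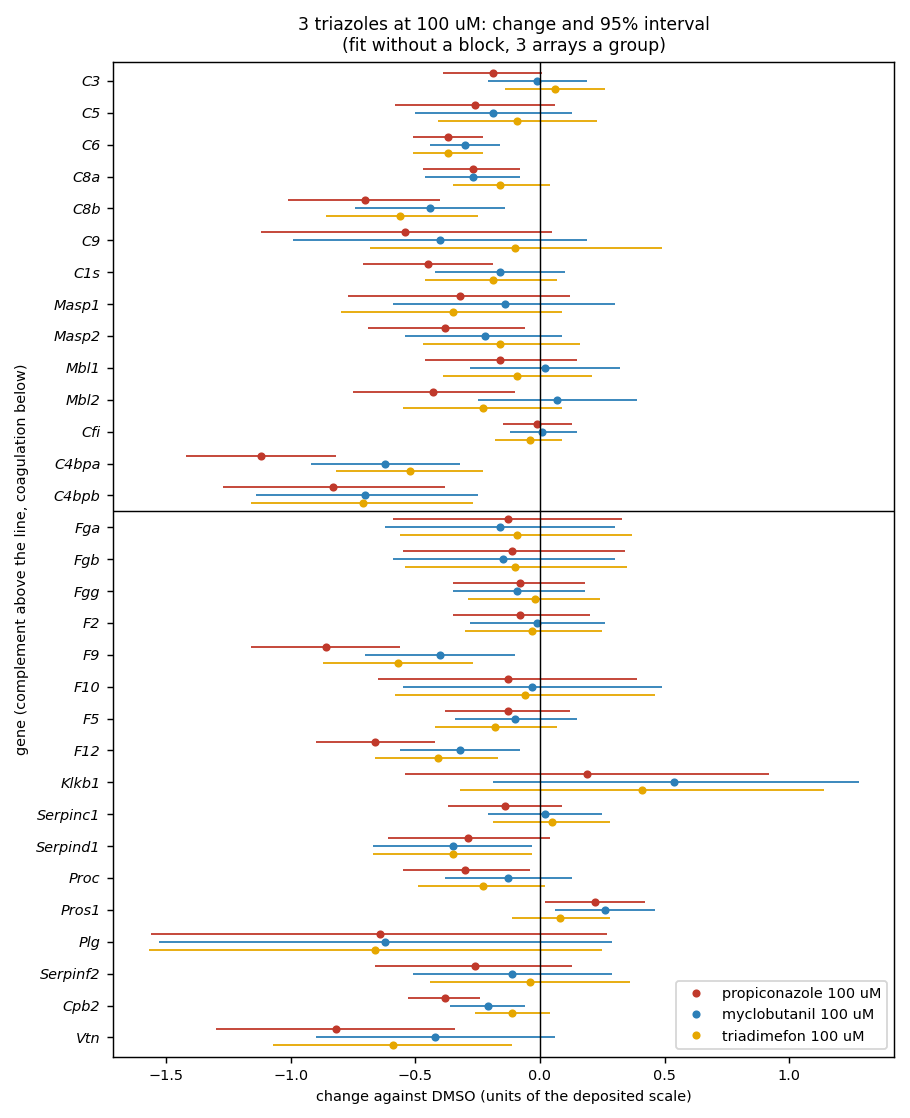
Change against DMSO at 100 µM for the 31 members, in units of the normalized scale, 1 point a triazole with its 95% interval from the fit without the block. C4bpa lies at -1.12 with propiconazole, -0.62 with myclobutanil and -0.52 with triadimefon, whereas the 3 points of C6 lie between -0.37 and -0.30.

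Over the doses of each triazole, slopes per log10 dose were fitted on the 10, 30 and 100 µM arrays. With propiconazole 9 members had a falling slope, 5 of complement (C4bpa, Masp2, C8b, C1s and C6) and 4 of coagulation (Vtn, F9, F12 and Cpb2), where 3.72% of all genes fell. The largest was -0.95 for C4bpa (SE 0.144, adjusted p = 0.000124), followed by -0.79 for Vtn (adjusted p = 0.0324) and -0.70 for F9 (adjusted p = 0.00266). Masp2 had a slope of -0.52 (adjusted p = 0.0319), although it was not called against DMSO. The count was 2 without code Rs293, 4 without Rs304 and 11 without Rs256. No member slope was called for myclobutanil or triadimefon, where 0.105% and 0.00953% of all genes had a falling slope, and over the 3 compounds 28 member slopes had an unadjusted p under 0.05. With the block, 21 members fell and 1 rose with propiconazole (11.5% and 13.3% of all genes), 9 fell and 2 rose with myclobutanil (3.07% and 3.57%), and 7 fell and none rose with triadimefon (1.39% and 1.53%).

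At 10 and 30 µM no member was called against DMSO by limma, with 7 member tests at an unadjusted p under 0.05. Over all genes the share called was 0.00953% and 0.0381% for propiconazole, 0% and 0.00953% for myclobutanil and 0% and 0.0286% for triadimefon. The 7 tests were C6, C8b, C4bpb and Pros1 with propiconazole at 30 µM and C6, C8b and C4bpb with triadimefon at 30 µM, and at 10 µM there were none. C4bpb read 0.22, 0.44 and 0.15 with propiconazole at 30 µM, all below the DMSO arrays. The difference was -0.62 (adjusted p = 0.531, 0.036 with the block). C8b at the same dose read 1.14, 1.5 and 1.16, overlapping DMSO, and differed by -0.35 (adjusted p = 0.731, 0.0376 with the block). With the block Klkb1 and Pros1 also rose there, by 0.61 and 0.21 (adjusted p = 0.00707 and 0.0469), where 0.867% of all genes fell and 1.75% rose. C4bpa and F9, which had the largest changes at 100 µM, read 2.36 to 2.63 and 2.33 to 2.59 at 30 µM and differed by -0.29 and -0.22 (adjusted p = 0.819 and 0.953).

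Phenobarbital and PCN, the activators of the nuclear receptors CAR and PXR used as reference inducers, changed no member by limma in either fit, where 0.00953% of all genes were called for each without the block. With the block 8 member tests had an unadjusted p under 0.05, and without it there was 1, F9 with PCN, which read 2.54 and 2.17 against 2.61 to 2.86 in DMSO. The difference was -0.34 (SE 0.163, n = 2 and 3, adjusted p = 1), but the DMSO value of 2.86 is the Rs256 array, which has no PCN partner. Within codes Rs293 and Rs304 the F9 differences were -0.07 and -0.44, and with the block the difference was -0.25 (SE 0.102, adjusted p = 0.816). C4bpa read 2.69, 2.54 and 2.63 with phenobarbital, partly within its DMSO range, at a difference of -0.13 (95% interval -0.43 to 0.16). C4bpb with phenobarbital differed by -0.39 (-0.84 to 0.05). Member medians were -0.04 for complement and -0.02 for coagulation with phenobarbital, and -0.07 and -0.13 with PCN. With the block, which sets PCN against DMSO within the codes it has, the PCN medians were -0.09 and -0.07.

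Other genes of the same pathways were taken from wider lists. Of 25 further complement genes 9 were tested, and with propiconazole at 100 µM 1 fell, C8g, the gamma subunit of C8, by 0.44 (SE 0.084, adjusted p = 0.000792), with a median of -0.12. With the block 5 of the 9 fell. C8g also fell with myclobutanil, by 0.36 (adjusted p = 0.0312), and its difference with triadimefon was -0.30 (adjusted p = 0.0655, 0.0192 with the block). Of 28 further coagulation genes 19 were tested, with a median of -0.03. With propiconazole Hrg, a histidine-rich plasma protein, fell by 1.34 (adjusted p = 0.00923) and Vkorc1, the enzyme that recycles vitamin K, fell by 0.51 (adjusted p = 0.0392). Its paralog Vkorc1l1 and thrombomodulin (Thbd) rose by 0.23 and 0.41 (adjusted p = 0.00964 and 0.0131). With the block 4 of the 19 fell and 5 rose. Beside these counts stand the shares of all genes already given, 5.6% falling and 6.37% rising without the block and 13.6% and 15.7% with it.

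Of 15 genes for regulators of these pathways 13 were tested, and none was called by limma without the block at 100 µM of any triazole (0 to 1 at an unadjusted p under 0.05 a compound). With it, Cebpa, Nr1h4, Nr1i3 and Il6r fell by 0.29, 0.24, 0.26 and 0.17 with propiconazole at 100 µM (adjusted p = 0.00274, 0.0149, 0.0315 and 0.041), and Foxa2 and Cebpb rose by 0.14 and 0.21 (adjusted p = 0.035 and 0.047), so 4 of 13 fell and 2 of 13 rose where 13.6% and 15.7% of all genes did. Of 10 acute phase genes 9 were tested and, without the block, 1 was called for each triazole: haptoglobin (Hp) fell by 0.24 with propiconazole (adjusted p = 0.000631) and by 0.17 with triadimefon (adjusted p = 0.0435), while C-reactive protein (Crp) rose by 0.34 with myclobutanil (adjusted p = 0.0367). With the block Lcn2 also rose, by 0.75 with propiconazole and 0.69 with triadimefon (adjusted p = 0.00104 and 0.0059), Serpina3n and Fgl1 fell by 0.35 and 0.25 with propiconazole (adjusted p = 0.0291 and 0.033), and Hp fell by 0.14 with myclobutanil (adjusted p = 0.0173). Of all genes, 12%, 1.21% and 1.83% were called in either direction without the block for propiconazole, myclobutanil and triadimefon. With the block the shares were 29.3%, 9.92% and 11.8%. For propiconazole, 1 of 9 without the block was near the share of all genes.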

How the data were processed

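The deposited table gives, for 31099 probe sets on 35 arrays, a score on a log-like scale made by the authors, centred near 0, and its base, probe summary and normalization are not given in the sources used here. From these values, arrays were quantile normalized, control probe sets (57) and probe sets naming several genes (436) or none (9780) were set aside, and each gene was represented by its brightest probe set. Genes above the array median on at least 2 arrays were tested with limma 3.58.1 (R 4.3.3) on all arrays with 1 mean per group, two-sided, Benjamini-Hochberg within each of 23 comparisons, called at adjusted p under 0.05. The alternatives were the replicate block, other scalings, filters and probe-set rules, fits on the groups compared, and leave-outs. All but the first were run without the block, so the calls lost under them are those of the fit without it. Leaving out a single array also unbalances the codes between the groups. Same-code arrays of compared groups deviated together in all 86 pairs (r 0.277 to 0.952), so the titles' codes were taken to pair the samples. The number of arrays limits the precision. In data simulated for propiconazole at 100 µM with 10490 genes, 85% of changes of 0.5 and 99% of changes of 1 were recovered. The simulated noise was independent between arrays, without the code deviations that the real arrays share. These rates are averages over genes and do not give the power for members with a wide spread, such as Plg. Members and lists were chosen with earlier results of these data known. The rule for giving values on every array took members called in any comparison in either fit, up to 12 by smallest adjusted p, and the 3 of each list with the largest change at 100 µM. Values by array of Proc, Pros1, Plg, Klkb1, the fibrinogen chains and the Cfb and C2 probe set were added outside this rule. Promoter letters were searched with pandas 2.3.3, and plots drawn with matplotlib 3.10.9.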

Additional observations from a re-analysis of the deposited data

How the results depend on the processing

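With the replicate block, the counts of members called were 12 (complement) and 10 (coagulation) for propiconazole, 6 and 8 for myclobutanil and 5 and 7 for triadimefon at 100 µM, 4 at the lower doses, 15 over the pairs and 40 over the slopes, and all members called without the block at 100 µM were called with it. With the values as deposited, centred on their median, or scaled to a common median absolute deviation, the coagulation count was 0, 0 and 0 for propiconazole and triadimefon alike, and the complement count was 0, 0 and 0 for myclobutanil and 1, 1 and 1 for triadimefon. The common deviation left 2 complement members with propiconazole, and the slopes gave 2, 2 and 1. Fits of only the groups compared called 3 complement members for propiconazole, 0 for myclobutanil and 0 for triadimefon, 0 coagulation members for triadimefon and 4 slopes. Without the filter on low values triadimefon had 1 complement and 0 coagulation calls. Leaving out arrays gave 3 to 6 complement and 3 to 6 coagulation calls for propiconazole, 0 to 2 and 0 to 0 for myclobutanil, 0 to 2 and 0 to 1 for triadimefon, 0 to 0 for lower doses, inducers and pairs, and 2 to 11 slopes. Leaving out arrays, Mbl2 with myclobutanil (0.07) ranged from -0.07 (code Rs293 left out) and -0.03 (its DMSO array left out) to 0.17 without Rs256, and with triadimefon (-0.23) from -0.42 without Rs293 to 0.01 without Rs256. Cpb2 with triadimefon went from -0.11 to 0.01, 0 and 0.07 under the 3 scalings. Apart from the fits with fewer arrays or genes, the cause was not tested. All genes called with propiconazole numbered 1255, 3075 with the block, and 428, 501 and 376 under the 3 scalings. Leaving out the propiconazole 30 µM array of widest spread, an alternative chosen after seeing the data, left the counts at 100 µM at their values and gave 10 slopes.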
